A study of Mus musculus with 53 samples.

Results

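The genes of the proteasome, the protease complex that degrades ubiquitin-tagged proteins, were followed in single mouse embryonic blood stem cell precursors with and without the control region of H19. Members were the rows of the deposited T1 pre-HSC table whose gene name begins with Psma to Psmg followed by a digit, without names of pseudogenes. They numbered 48 of the 14833 genes listed, and 46 of them encode a subunit, an assembly factor, an activator or an inhibitor of the proteasome. Psmc3ip, a recombination cofactor, and Psme2b, a second copy of Psme2, matched by name only.

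The series holds 53 samples, of which 48 are single-cell RNA libraries and 22 of those are T1 pre-HSCs, the type 1 precursors of haematopoietic stem cells, taken by sorting from the aorta-gonad-mesonephros (AGM) of mouse embryos at embryonic day 11. The KO group was 12 cells, numbered 1 to 12, of the genotype mH19 delta_DMR/+, in which the maternal allele lacks the differentially methylated region (DMR) that controls H19. The wildtype group was 10 cells, numbered 13 to 22, of the genotype mH19 flDMR/+, in which fl is the usual mark of a region flanked by recombination sites. Neither label is a plain unmodified genotype, and the agent that removed the region in KO cells is not given in the labels. No embryo or litter is named for any cell, so each group counts as 1 sample, cells are not replicates, and no test between the genotypes was possible. Wildtype cell 19 was left out of every comparison by the rule that chose the cells. Much of its column is out of step with the gene rows, though not in the proteasome rows, as given below. The comparison thus rests on 12 KO and 9 wildtype cells. Levels are RPKM, reads per length of transcript and per read mapped in the cell. Being per length, they are set beside each other between genes. Such comparisons of level rest on even coverage along transcripts, which was not tested. A gene is called detected in a cell at 1 RPKM or more.

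Proteins marked with ubiquitin chains are degraded by the 26S proteasome, a 20S core particle capped by 19S regulatory particles. The core is a stack of alpha and beta rings, and 3 of its beta subunits carry the proteolytic sites, Psmb5 (chymotrypsin-like), Psmb6 (caspase-like) and Psmb7 (trypsin-like). In immune cells and under interferon these are replaced by Psmb8, Psmb9 and Psmb10 to form the immunoproteasome, which yields peptides for MHC class I. In the 19S particle, ATPases (Psmc genes) unfold the substrate, and the base and lid (Psmd genes) bind ubiquitin and remove it. Alternative caps (Psme genes) activate the core without ATP. Haematopoietic stem cells are known to make protein slowly and to depend on proteasome activity for protein quality.

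The promoters of catalytic subunits are shown to set the constitutive genes beside their inducible counterparts. Each line is the 100 bases before a start of the gene in RefSeq, GRCm38.p6, 5′ to 3′ on the strand of the gene, and capitals mark a match to any of 4 motifs searched on both strands.
Psmb5, constitutive, chr14:54617996-54618095, minus strand: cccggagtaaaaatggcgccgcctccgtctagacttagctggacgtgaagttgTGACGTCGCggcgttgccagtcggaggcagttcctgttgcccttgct
Psmb8, its inducible counterpart, chr17:34198095-34198194, plus strand: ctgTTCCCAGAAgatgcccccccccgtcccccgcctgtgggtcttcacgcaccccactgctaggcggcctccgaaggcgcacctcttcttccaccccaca
Psmb6, constitutive, chr11:70525257-70525356, plus strand: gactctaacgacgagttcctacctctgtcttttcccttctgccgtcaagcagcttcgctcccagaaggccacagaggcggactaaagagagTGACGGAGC
Psmb9, its inducible counterpart, chr17:34187331-34187430, minus strand: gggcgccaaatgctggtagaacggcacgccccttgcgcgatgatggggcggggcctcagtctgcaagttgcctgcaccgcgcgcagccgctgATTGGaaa
Psmb10, inducible counterpart of Psmb7, chr8:105938393-105938492, minus strand: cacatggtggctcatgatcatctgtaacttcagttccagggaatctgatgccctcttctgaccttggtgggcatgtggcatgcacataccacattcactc

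In these windows Psmb5 and Psmb6 each held TGACNNNGC, the core of the antioxidant response element bound by NRF factors. Psmb8 held TTCNNNGAA, the core of STAT sites, and Psmb9 held CCAAT on the opposite strand, the box bound by NF-Y. Psmb10 held none of these letters, nor the core of interferon-stimulated response elements searched as GAAA, any 2 bases and GAAA in a row. Over the 250 bases before the start, the table held 44 entries for 41 of the member genes. TGACNNNGC was in 5 of them, 11.4%, against 10.2% of all 32851 entries, and CCAAT was in 14, 31.8%, against 33.8%. TTCNNNGAA was in 2, 4.55%, against 7.02%, and the interferon-stimulated element core was in 3, 6.82%, against 2.98%. The last share rests on Psmd4, Psmd9 and Psmb3. These matches are descriptions of letters, and binding was not measured.

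Cells differed in how many genes they showed. At 1 RPKM or more, KO cells had 1517 genes at the lowest, 3172 at the median and 8408 at the highest, and wildtype cells had 2067, 4176 and 5716. KO cells 2, 4, 5 and 6 lay above every wildtype cell, and KO cells 1, 9 and 12 lay below every one. Sequencing depth is unknown, because RPKM keeps no read counts, and fewer reads and less RNA in a cell cannot be told apart. H19, the gene controlled by the deleted region, lay at 0 to 186 RPKM in KO cells, below all wildtype cells at 231 to 1261 RPKM. Of 10 T1 pre-HSC markers, 46.7% of gene-by-cell values were detected in KO and 68.9% in wildtype cells. By the rule given below, 9 of them could be compared. In KO, 3 lay lower by 1 or more and 0 higher, against 28.0% and 11.4% of all genes compared. Counting differences of every size, 7 lay lower and 2 higher. Runx1 was in 4 of 12 KO cells and 6 of 9 wildtype cells, Gfi1 in 0 of 12 KO cells and 7 of 9 wildtype cells, and Eng in 5 of 12 KO cells and 8 of 9 wildtype cells, with differences of mean log2(RPKM + 1), KO minus wildtype, of -2.70, -2.57 and -2.09. The endothelial markers Procr and Cdh5 were in 9 and 7 of 12 KO cells and in 8 and 7 of 9 wildtype cells. Cd44 was in 7 of 12 KO cells and 4 of 9 wildtype cells, with a difference of 0.68. Kit was in 7 of 12 KO cells and 5 of 9 wildtype cells, with a difference near 0. Ptprc (CD45), which these cells lack or hold at low levels, was in 1 cell of each group. Erythroid markers were detected in 7.14% of KO values, with sums of 0 to 148 RPKM per cell, and in 6.35% of wildtype values, with sums of 0 to 239 RPKM. Myeloid markers were detected in 18.1% of KO values, with sums of 0.00651 to 876 RPKM, and in 16.7% of wildtype values, with sums of 0.984 to 1951 RPKM. Lyz2 was in 6 of 12 KO cells at up to 700 RPKM and in 6 of 9 wildtype cells at up to 1951 RPKM, Cd68 and Mpo were each in 2 KO cells at up to 217 and 137 RPKM and in 0 wildtype cells, and Emr1 was in none. Mesenchymal markers were detected in 16.7% of KO values, with sums of 0.00364 to 797 RPKM, and in 13.9% of wildtype values, with sums of 0.00104 to 191 RPKM. Col1a1 was in 4 of 12 KO cells and 1 of 9 wildtype cells, and Col3a1 in 3 KO cells and 2 wildtype cells. Dlk1 was in 3 KO cells and 1 wildtype cell, and Prrx1 in 2 KO cells and 0 wildtype cells. Col1a2 was in 2 KO cells and 3 wildtype cells, and Pdgfrb in 0 KO cells and 1 wildtype cell. Twist1 was in 2 KO cells and 2 wildtype cells, and Pdgfra in none. The part of any of these in the results on the proteasome was not tested.

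Proteasome genes were among the widely detected genes of these cells. Of the member-by-cell values, 65.8% of those in KO cells and 72.7% of those in wildtype cells were detected, against 26.8% in KO cells and 27.6% in wildtype cells over all listed genes. Most values were either high or near 0. Of the 1008 values in the 21 cells, 46.9% were at 100 RPKM or more, 14.3% between 10 and 100, 7.54% between 1 and 10, 6.25% above 0 but under 1, and 25% were listed at 0. An exact 0 in such a table can be a failed estimate, so these genes are called listed at 0 and not absent. The mean level of a member went with the number of cells that showed it, with a Spearman correlation of 0.83 over the 48 members, which share the same libraries.

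The 20S core genes stood highest, led by catalytic Psmb6 and by the alpha subunits Psma7 and Psma2. Psmb6 spanned 0 to 3010 RPKM with a median of 1503 in KO cells, and 0 to 2440 with a median of 1187 in wildtype cells. Psma7 spanned 0 to 1930 with a median of 1220 RPKM in KO cells, and 651 to 2235 with a median of 1283 in wildtype cells. Psma2 spanned 0 to 1775 with a median of 684 RPKM in KO cells, and 0 to 1277 with a median of 602 in wildtype cells. All 3 had ranges that overlap between the genotypes, and KO cell 9 alone was listed at 0 for Psma7. Psma6, an alpha subunit, was the only member detected in all 21 cells, at 1.12 to 1373 RPKM in KO and 136 to 765 in wildtype cells. Detected in 20 of 21 were 8 members: the alpha subunits Psma7 and Psma3, the beta subunits Psmb1, Psmb3 and Psmb5, the ATPases Psmc3 and Psmc4, and the ubiquitin receptor Psmd4. Of the 31 constitutive subunit genes among the members, core and regulatory, 1 was detected in every KO cell and 11 in every wildtype cell. These counts do not compare the genotypes. They ask for 12 KO cells but 9 wildtype cells, and KO cells 1, 9 and 12 had under 2000 genes. The same counts were not made over all genes.

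**Figure D1:**
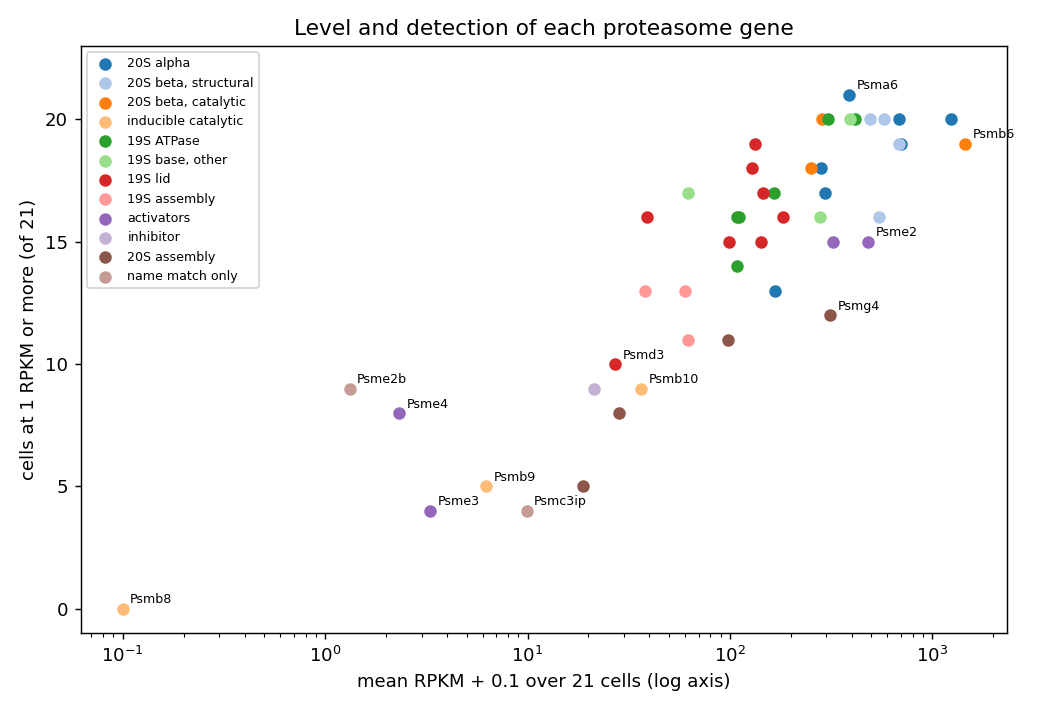
Mean RPKM plus 0.1 over 21 cells (log axis) against the number of cells with 1 RPKM or more, for each of the 48 genes, coloured by role. The 20S alpha and beta genes sit at the upper right with Psmb6 farthest right, while Psmb8 sits at 0 cells and Psme2b, Psme4 and Psme3 lie far to the left.

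Core genes averaged higher than the regulatory genes among the members in each cell. The 19S genes here are the 17 that match by name. The lid subunit Shfm1 and the ubiquitin receptor Adrm1, given further below, do not match and are left out. The mean of the 14 constitutive core genes was set over the mean of these 17. In KO cells this ratio was 1.41 at the lowest, 3.72 at the median and 5.26 at the highest. In wildtype cells it was 2.28, 3.22 and 4.72. It was above 1 in 21 of 21 cells. By medians over genes, a comparison added after seeing the data, the core lay above the 19S genes in 20 of 21 cells. The exception was KO cell 12, with medians of 6.28 RPKM for the core and 34.3 RPKM for the 19S genes, where 7 of 14 core and 14 of 17 19S genes were detected. The median member mean was 519 RPKM for the core and 133 RPKM for the 19S genes. Of core values, 83.9% were detected in KO and 94.4% in wildtype cells, and of 19S values 76.0% were detected in KO and 83.0% in wildtype cells. All 14 core genes were detected in 4 KO and 5 wildtype cells. Among the 19S groups, the 6 ATPases had a median member mean of 138 RPKM, the 8 lid genes 131 RPKM, and the base genes Psmd1, Psmd2 and Psmd4 278 RPKM. Psmd3, a lid subunit, was the least detected constitutive subunit gene, in 5 of 12 KO and 5 of 9 wildtype cells.

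**Figure D2:**
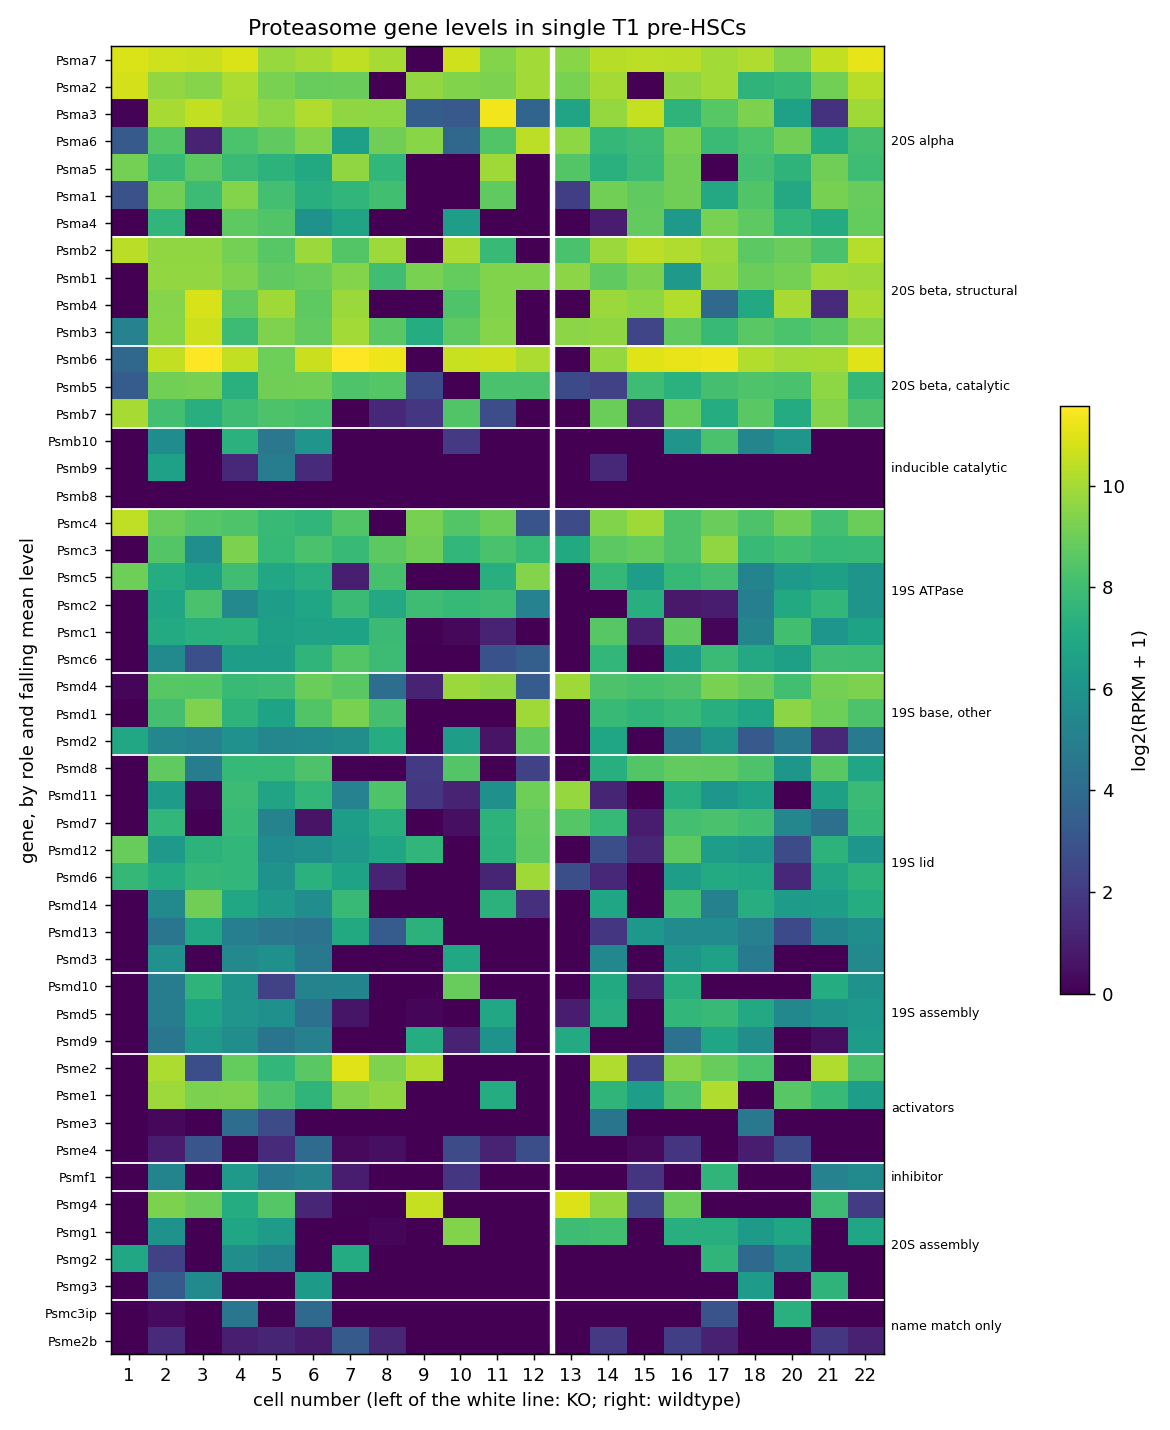
Log2(RPKM + 1) of the 48 genes (rows, grouped by role and ordered by mean level within a role) in each of 21 cells (columns, 12 KO left of the white line and 9 wildtype right of it). Core rows are bright in most cells, the 3 inducible catalytic rows are dark in most, and the columns of KO cells 1, 9 and 12 and of wildtype cell 13 hold the most dark squares.

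Among catalytic subunits, the constitutive genes were each detected in 18 to 20 of 21 cells, and the inducible genes in 9 (Psmb10), 5 (Psmb9) and 0 (Psmb8). Psmb5 spanned 0 to 584 RPKM with a median of 319 in KO cells, and 3.79 to 775 with a median of 246 in wildtype cells, and was detected in 11 of the KO and 9 of the wildtype cells. Psmb7 spanned 0 to 1046 RPKM with a median of 198 in KO cells, and 0.0211 to 674 with a median of 323 in wildtype cells, and was detected in 10 of the KO and 8 of the wildtype cells. Psmb6, given with the core genes, was detected in 11 of 12 KO cells and 8 of 9 wildtype cells. The ranges of the genotypes overlap for each of these. In 2 cells of few genes, KO cell 9 and wildtype cell 13, these 3 genes were all under 10 RPKM, with sums of 7.71 and 5.16 RPKM. Their sum was 1069 to 3743 RPKM in the other KO cells and 1361 to 2904 RPKM in the other wildtype cells. The mean of the 14 core genes was 165 RPKM for KO cell 9, against 311 RPKM for wildtype cell 13.

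Psmb8 was listed at 0 in all 12 KO and all 9 wildtype cells. By a limit of 3 cells, 0 of 21 allows a share of up to 14.3% of cells with a listed value of 1 RPKM or more. Because a 0 can be a failed estimate, this bounds no share of cells that express the gene. Psmb9 was detected in KO cells 2, 4, 5 and 6, at 96.9, 1.44, 28.3 and 1.57 RPKM, and in wildtype cell 14 at 1.45. That is 4 of 12 KO cells, with an exact 95% interval (Clopper-Pearson) of 9.92 to 65.1%, and 1 of 9 wildtype cells, with an interval of 0.281 to 48.2%. The intervals cover counting error over the cells only and do not compare the genotypes. The 4 KO cells are those with the most detected genes of all. Psmb10 was detected in KO cells 2, 4, 5, 6 and 10, up to 163 RPKM, and in wildtype cells 16, 17, 18 and 20, up to 298 RPKM. Its shares were 5 of 12 KO cells, interval 15.2 to 72.3%, and 4 of 9 wildtype cells, interval 13.7 to 78.8%. The inducible genes made up 0% of the summed catalytic level at the lowest, 0% at the median and 8.17% at the highest in KO cells, and 0, 0.107 and 9.42% in wildtype cells. As a ratio of summed group means the inducible share was 1.75% in KO and 2.55% in wildtype cells. At least 1 inducible gene was detected in 5 KO and 5 wildtype cells.

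**Figure D3:**
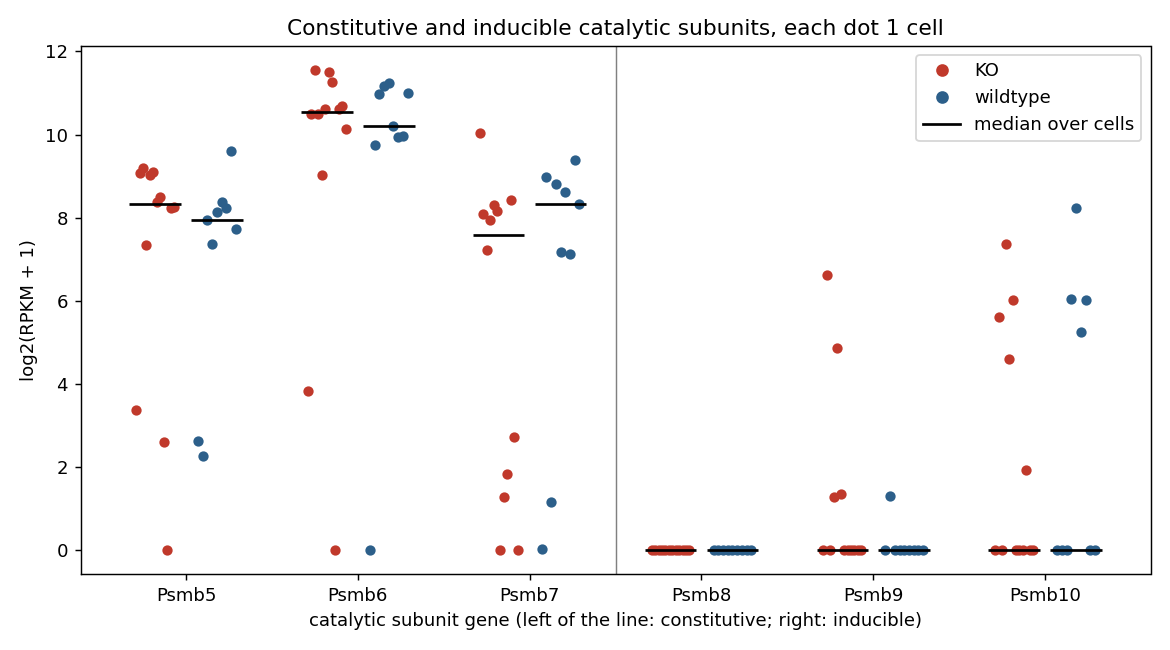
Log2(RPKM + 1) of the 3 constitutive (left) and 3 inducible (right) catalytic subunit genes, each dot 1 cell, KO left of wildtype, with a bar at the median. Dots of Psmb5, Psmb6 and Psmb7 lie mostly above 100 RPKM in both genotypes, those of Psmb9 and Psmb10 mostly under 1 RPKM, and all 21 of Psmb8 at 0. KO cell 9 and wildtype cell 13 lie under 10 RPKM for all 3 constitutive genes.

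How many proteasome genes a cell showed went with how many genes it showed at all. KO cells 1 to 12 had 16, 44, 35, 44, 45, 42, 32, 27, 18, 25, 29 and 22 of the 48 members, with a median of 30.5. Wildtype cells 13 to 18 had 19, 38, 26, 40, 38 and 39, and cells 20 to 22 had 36, 38 and 40, with a median of 38. The 4 KO cells richest in genes thus had more members than any wildtype cell, and KO cells 1 and 9 had fewer than any. The Spearman correlation with all genes detected per cell was 0.96 over the 21 cells, 0.97 over the 12 KO and 0.67 over the 9 wildtype cells, as a description of cells that share a table and a scaling. The summed member level was less tied to it, at 0.41. That sum was 6845 RPKM at the lowest, 11494 at the median and 17872 at the highest in KO cells, and 9009, 12666 and 16468 in wildtype cells. Members took 0.736% of a KO cell's total at the lowest, 1.14% at the median and 1.73% at the highest, and 0.936, 1.31 and 1.55% of a wildtype cell's. The levels of the members that were detected had a median of 241 RPKM in the middle KO cell and 217 RPKM in the middle wildtype cell. The 3 highest members of a cell made up 25.4 to 53.5% of its sum among KO cells, against 24.3 to 41.8% among wildtype cells. The largest shares were those of KO cells 1 and 9, at 53.5 and 51.0%, which showed the fewest members.

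**Figure D4:**
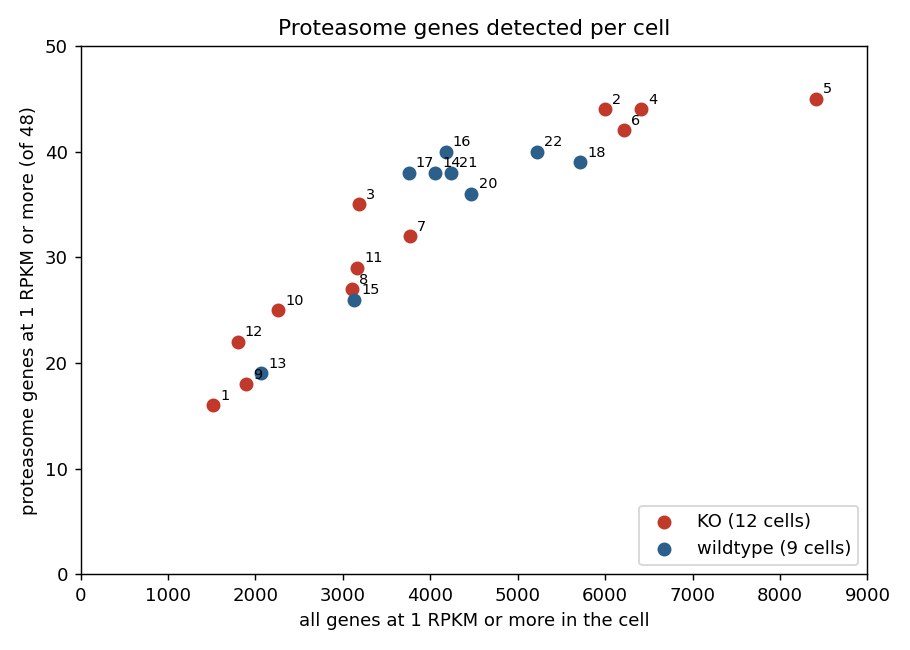
Proteasome genes at 1 RPKM or more (of 48) against all genes at 1 RPKM or more, each dot 1 numbered cell, KO and wildtype in separate colours. Members climb with all genes up to 45, with KO cells 2, 4, 5 and 6 at the upper right and KO cells 1, 9 and 12 at the lower left, with wildtype cells between or beside them.

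The comparison of KO with wildtype cells asks whether T1 pre-HSCs express these genes differently when the H19 region is deleted. Genes enter it when detected in 50% or more of the cells of at least 1 genotype, and the value is the difference of mean log2(RPKM + 1), KO minus wildtype, which understates changes of low genes. A difference of 1 or more in size is called large, by size alone, with no test. Of 48 members 40 could be compared, 32 with a negative and 8 with a positive difference. By this rule 14 members, 35%, lay lower in KO by 1 or more, against a background of 28.0% of the 3867 genes compared, and 3, 7.5%, lay higher by 1 or more, against 11.4%. The median difference over members was -0.69, against -0.36 over all genes compared, of which 64.3% lay lower in KO. No member had ranges that did not overlap between the genotypes. The same count was not made over all genes compared, so it does not set the members apart from them. Most members lay lower in KO, as did most of the genes compared. With medians over cells in place of means, 8 members, 20%, lay lower by 1 or more, against 37.5% of all genes, and 5, 12.5%, higher, against 17.6%. The median difference was then -0.15 over members and -0.33 over all genes compared. The members thus stood closer to 0 than those genes, and with means farther from it. With a pseudocount of 10 the members lower were 9, 22.5%, against 11.0% of all genes, and those higher 3, 7.5%, against 4.03%. Without single cells the median over members ran from -1.02 (without wildtype cell 13) to -0.28 (without KO cell 1).

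The direction was not kept when KO cells were selected by genes detected. Without KO cells 1, 9 and 12, which had under 2000 genes, the median over 42 members was 0.069, against 0.22 over all genes. By 1 or more, 6 members, 14.3%, lay lower, against 14.1% of all genes, and 9, 21.4%, higher, against 25.9%. With only KO cells 2, 4, 5 and 6, whose detected genes reach the median of wildtype cells, it was 1.12 over 47 members, against 1.28 over all genes. By 1 or more, 1 member, 2.13%, lay lower, against 2.11% of all genes, and 25, 53.2%, higher, against 59.9%. Both selections dropped KO cells only and kept every wildtype cell, cell 13 with 2067 genes included, on a measure that goes with the members detected. The shift of the genes compared towards KO is built into them, and they do not test the genotype.

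By role, the 7 alpha genes had a median difference of -1.01, with 4 lower by 1 or more (Psma4, Psma1, Psma6 and Psma5), and the 4 structural beta genes one of -0.66, with 1 (Psmb2). Over all genes compared 28.0% lay lower and 11.4% higher by 1 or more, and most roles hold too few genes for a share to be set against these. By medians over cells Psma6 had a difference of 0.30 and the base gene Psmd1 one of 0.055, against -1.06 and -1.50 by means. The catalytic genes had differences of 0.010 for Psmb5, -0.18 for Psmb6 and -1.28 for Psmb7, and the last was 1.51 with the 4 gene-rich KO cells and -0.80 without KO cell 12. Psmb6 was at -1.35 without wildtype cell 13, which is listed at 0 for it, and at 0.66 without KO cell 9. The ATPases had a median of -0.70, with 1 lower (Psmc6) and 1 higher (Psmc2). The base genes were split, with Psmd4 and Psmd1 lower and Psmd2 higher. The 8 lid genes had a median of -0.67, with Psmd8, Psmd7 and Psmd14 lower and Psmd12 higher. Of the 19S chaperones Psmd5 lay lower, while Psmd9 and Psmd10 were near 0 at -0.063 and 0.18.

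**Figure D5:**
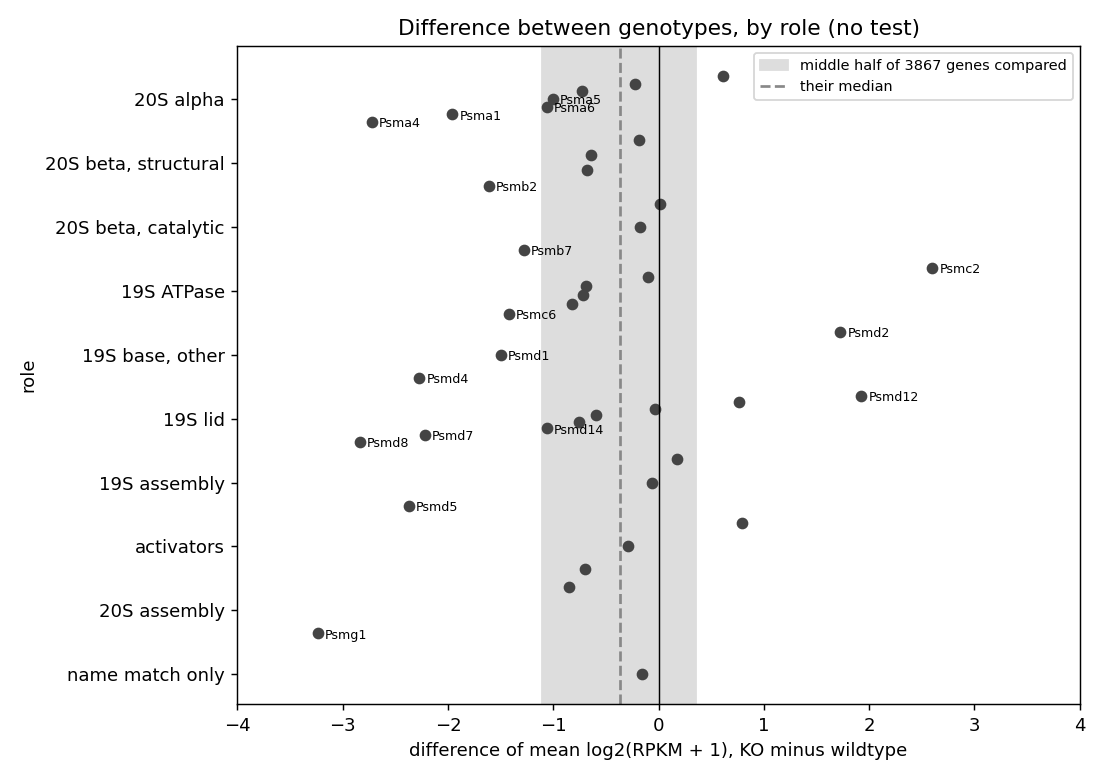
Difference of mean log2(RPKM + 1), KO minus wildtype, for the 40 genes compared, by role, with names at 1 or more in size. The grey band is the span from the lower to the upper quartile (-1.11 to 0.35) of the 3867 genes compared and the dashed line their median of -0.36, and 14 members lie left of -1 and 3 (Psmc2, Psmd12 and Psmd2) right of 1.

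The members farthest lower in KO were each detected in a smaller share of KO than of wildtype cells. Psmg1, a chaperone that starts the alpha ring, spanned 0 to 659 RPKM with a median of 0.0043 in KO cells, and 0 to 264 with a median of 115 in wildtype cells. It was detected in 4 of 12 KO cells, interval 9.92 to 65.1%, and in 7 of 9 wildtype cells, interval 40.0 to 97.2%, and its difference was -3.24. The highest cell of all was a KO cell, and the ranges overlap throughout. Psmd8, a lid subunit, spanned 0 to 426 RPKM with a median of 16.5 in KO cells, and 0 to 441 with a median of 324 in wildtype cells, a difference of -2.84. Psma4, an alpha subunit, spanned 0 to 412 RPKM with a median of 28.8 in KO cells, and 0 to 607 with a median of 198 in wildtype cells, a difference of -2.73. Both lay higher in KO when only the 4 gene-rich KO cells were used, at 1.12 and 1.27. Psmd5, which holds ATPases during base assembly, spanned 0 to 120 RPKM with a median of 9.57 in KO cells, and 0.00258 to 220 with a median of 70.2 in wildtype cells, a difference of -2.37. Psmd4, which binds ubiquitin chains, spanned 0.104 to 898 RPKM with a median of 305 in KO cells, and 269 to 973 with a median of 466 in wildtype cells, a difference of -2.27. Psmd4 was above 1 RPKM in 11 of 12 KO cells and 9 of 9 wildtype cells. Its difference was -0.60 without the KO cells under 2000 genes and -0.51 with the gene-rich KO cells, where Psmg1 was at -0.85 and Psmd5 at -0.070.

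A few regulatory genes lay higher in KO, against the direction of most genes compared. Psmc2, an ATPase of the base, spanned 0 to 298 RPKM with a median of 119 in KO cells, and 0 to 200 with a median of 31.0 in wildtype cells. It was detected in 11 of 12 KO cells, interval 61.5 to 99.8%, and in 5 of 9 wildtype cells, interval 21.2 to 86.3%. These intervals cover counting error over the cells only and do not compare the genotypes. Its difference was 2.60, and it lay between 1.59 and 3.29 under every alternative run. Psmd12, a lid subunit, spanned 0 to 461 RPKM with a median of 140 in KO cells, and 0 to 410 with a median of 66.6 in wildtype cells, a difference of 1.92 (range over alternatives 1.03 to 2.52). Psmd2, a scaffold of the base that docks ubiquitin shuttle factors, spanned 0.0148 to 421 RPKM with a median of 48.5 in KO cells, and 0 to 112 with a median of 24.7 in wildtype cells, a difference of 1.73 (0.94 to 2.20). These 3 kept a positive difference in every alternative run, of which the selections of KO cells moved most genes the same way. They were chosen from these same cells as the members farthest higher by means, with medians of that sign. The alternative runs reuse the cells and so are no independent check of them. Over all members compared 7.5% lay higher by 1 or more, against 11.4% of all genes compared. The ranges of these 3 genes overlap between the genotypes and no test could be made. Psme4 and Psmd6 had smaller positive differences, 0.79 and 0.77. Psme4, an alternative activator, spanned 0 to 15.3 RPKM with a median of 1.05 in KO cells, and 0 to 4.94 with a median of 0.0142 in wildtype cells. Psmd6, a lid subunit, spanned 0 to 969 RPKM with a median of 121 in KO cells, and 0 to 178 with a median of 85.0 in wildtype cells, and its difference was 0.21 without wildtype cell 15.

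Activators differed widely in level from each other. Psme1 and Psme2, the interferon-responsive pair of PA28, were each detected in 8 of 12 KO cells and 7 of 9 wildtype cells. Psme1 had a median of 262 RPKM over KO cells, against 187 RPKM over wildtype cells, and Psme2 had 292 RPKM over KO cells, against 321 RPKM over wildtype cells. Psme3, the nuclear form, was detected in 2 KO cells at up to 16.7 RPKM and in 2 wildtype cells at up to 23.7 RPKM. Over the 21 cells Psme1 and Psme2 had means of 322 and 482 RPKM and medians of 190 and 321 RPKM. Their means lay within those of the core genes, 168 to 1455 RPKM, but below the core's median member mean of 519 RPKM. Each was detected in 15 of 21 cells, against a median of 19 for core genes. The inducible catalytic genes were under 1 RPKM in most cells. Psme2b was at 1 RPKM or more in 9 cells, all of which had Psme2 at 202 RPKM or more, and in none with Psme2 under 100 RPKM. The copies share sequence, the treatment of reads that map to both is not given, and values of Psme2b and Psme2 are uncertain for that reason. Psmf1, an inhibitor of the core, was detected in 5 of 12 KO cells and 4 of 9 wildtype cells. The remaining core chaperones Psmg2, Psmg3 and Psmg4 were detected in 5, 3 and 6 KO and in 3, 2 and 6 wildtype cells, and Psmg4 reached 1491 RPKM in a KO and 1945 RPKM in a wildtype cell. Psmc3ip was detected in 2 KO and 2 wildtype cells.

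Other genes of the pathway were described from lists, to be read against the 28.0% of all genes compared that lay lower in KO by 1 or more and the 11.4% that lay higher. Of 8 further proteasome genes listed, 6 could be compared, with 2 lower in KO by 1 or more and 0 higher, and a median difference of -0.25. Shfm1, the smallest lid subunit, was detected in all 12 KO cells, at a median of 655 RPKM, and in all 9 wildtype cells, at a median of 528 RPKM. Pomp, the maturation factor of the core, was in 11 KO cells and 9 wildtype cells. The ubiquitin receptor Adrm1 and the deubiquitinase Uchl5 had differences of -1.34 and -1.16. Of 13 genes known to regulate proteasome transcription, 3 could be compared, 1 lower and 0 higher, with a median of -0.84. Nfe2l1, the main activator of proteasome genes when the proteasome is inhibited, was seen in 4 of 12 KO cells and 3 of 9 wildtype cells. Of 15 genes of ubiquitin, its activation and its shuttling 10 could be compared, 1 lower (Vcp, -1.12) and 1 higher (Uba1, 2.22). Of 17 genes of MHC class I presentation and interferon response 7 could be compared, 3 lower, among them B2m and H2-D1 at -1.43 and -1.41, and 1 higher (Ifngr1, 1.27). Tap1, the peptide transporter encoded next to Psmb9, was detected in 1 KO and 1 wildtype cell.

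The 8 subunits of the chaperonin CCT, another large cytosolic complex, were set beside the proteasome. They were detected in 66.7% of their KO values and 87.5% of their wildtype values. By means over cells all 8 lay lower in KO, 6 of them by 1 or more, with a median difference of -1.31. The 31 constitutive proteasome genes were detected in 79.6% of KO values and 88.2% of wildtype values, and 25 lay lower in KO, 12 of them by 1 or more, with a median of -0.71. Over all genes compared, 64.3% lay lower, and 28.0% by 1 or more, also by means. With medians over cells, Cct3, Cct4 and Cct8 lay higher in KO, at 0.55, 0.35 and 0.31, and the other CCT genes lower. The median over the 31 constitutive proteasome genes was then -0.085, against -0.33 over all genes compared. Whether the complexes differ in this was not tested.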

How the data were processed

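Deformed cells were discarded, ERCC RNA was added, and each single-cell library was built by template switching, per the labels' protocols. The deposited table gives RPKM as the authors computed it. The submitters' processing notes name Cufflinks 2.1.0 and mm10. The aligner and the handling of multi-mapped reads: not given in the sources used here. Depth is unknown, because RPKM keeps no read counts.

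Columns were matched to samples by cell number. Values were used as deposited with Python 3.11.15, pandas 2.3.3, numpy 2.4.6 and scipy 1.17.1. Means were taken of log2(RPKM + 1). The code was tested on simulated data. The 48 member rows lie together in the table, and the 48 gene IDs match the names of the reference table. In these rows all 21 cells used were in step with each other. Share intervals are exact Clopper-Pearson at 95%, cover counting error over the cells only, and do not compare the genotypes.

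Members, gene lists and comparisons were chosen with earlier results of these data known. Named with values were the catalytic genes, the 3 highest members, and the 5 members farthest lower and farthest higher in KO by means, where medians have that sign too; others named illustrate a role. Protein sequences were planned and are not shown. Adult cells, methylation libraries and Psm genes outside this table were not analysed here.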

Additional observations from a re-analysis of the deposited data

Results flagged for a closer look

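Within the 9 wildtype cells, 21 measures were searched for a single cell set apart from the rest by a gap large for the group's range (above 0.493 of it), and 5 were found. That cutoff would flag about 1 in 20 groups of normally distributed values. Values here include many at 0, so that rate does not hold and the 5 cannot be set against it. Psmb6 was listed at 0 RPKM in wildtype cell 13, where the other 8 wildtype cells detected it. Psmd8 was also listed at 0 in that cell, which had 2067 detected genes, the fewest of the wildtype cells compared. Psma2 was listed at 0 in wildtype cell 15. Psmb9 was at 1.45 RPKM in wildtype cell 14, and the other 8 wildtype cells were listed at 0. Any single value above 0 would have been flagged there. The inducible share of the catalytic level was 9.42% in wildtype cell 17.

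In wildtype cell 19, which is in no comparison, Psmb8 was at 12.3 RPKM, although it was listed at 0 in the other 21 cells. Over the 48 member rows this column had a Spearman correlation of 0.81 with the mean of the other cells as deposited, and 0.057 to 0.27 when moved by up to 3 rows. Its values therefore line up with the proteasome rows, where 42 members were detected. Whether this single value belongs to Psmb8 was not tested.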

How the results depend on the processing

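No paired analysis was possible, because no embryo or litter that could pair KO with wildtype cells is named. No test was made. The median difference over members, -0.69, lay at -1.02 and -0.40 with pseudocounts of 0.1 and 10, at -0.72 and -0.60 after rescaling to an equal total and an equal median, at -0.15 with medians over cells and at -0.74 with cell 19. It was 0.069 without KO cells under 2000 genes and 1.12 with the 4 gene-rich KO cells (2, 4, 5 and 6), and -1.02 (without wildtype cell 13) to -0.28 (without KO cell 1) without each cell in turn. The count lower in KO by 1 or more, 14, was 21 with a pseudocount of 0.1 (40.6% of all genes) and 9 with a pseudocount of 10 (11.0% of all genes). It was 8 with medians (37.5% of all genes), and 6 and 1 in these selections of KO cells (14.1% and 2.11% of all genes). Without each cell in turn it was 10 of 39 members (without KO cell 12, 25.7% of all genes) to 21 of 42 (without wildtype cell 13, 36.5% of all genes). The count higher, 3, was 4 with a pseudocount of 0.1 (16.2% of all genes) and 5 with medians (17.6% of all genes). It was 9 and 25 in the selections (25.9% and 59.9% of all genes). Without each cell it was 3 (without KO cell 1 among others, 14.8% of all genes) to 5 (without KO cell 8, 11.2% of all genes). The difference of median members detected, -7.5, was 6 with gene-rich KO cells and -9 to -6 without each cell. That of median summed levels, -1172 RPKM, was 22.0 and 578 RPKM in the selections, and -1927 to -696 RPKM without each cell. That of the median inducible share, -0.107 percentage points, was 0.040 and 4.73 in the selections, -1.01 to -0.053 without each cell, and -0.80 as a ratio of group means. Restricting to genes with a proteasome role, chosen after seeing the data, gave -0.69, 14 and 3. Psmb7, Psmd8 and Psma4 turned round with gene-rich KO cells, at 1.51, 1.12 and 1.27. Unknown depth limits every value near 0.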
